A study of Mus musculus with 10 samples.

Results

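The miR-15, miR-16, miR-195, miR-322 and miR-497 family was examined in small extracellular vesicles (sEVs, membrane particles released by cells) from mouse heart. Its members were taken by name from the deposited table and were mmu-miR-15a-5p, mmu-miR-15b-5p, mmu-miR-16-5p, mmu-miR-195a-5p, mmu-miR-322-5p and mmu-miR-497a-5p (written below without the species prefix), 6 of the 733 miRNAs listed. All 6 passed the filter on low counts, as did 177 miRNAs in all. The series holds 5 small RNA libraries of male C57BL/6J mice that received L-NAME at 0.5 g/L in the drinking water and food with 60% fat (HFD plus L-NAME), and 5 libraries of male controls on chow. For the controls the labels give no strain or age. Treatment began at 8 weeks of age and lasted 12 weeks, which serves as a mouse model of HFpEF, heart failure in which the ejection fraction is preserved. L-NAME inhibits nitric oxide synthase. The title speaks of cardiomyocytes, but the vesicles came from collagenase-digested cardiac tissue, so any cell of the heart may have released them, and whether each library is a separate mouse is not stated. The p-values therefore measure the spread between libraries.

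A miRNA finds its targets mainly through its seed, the bases near its 5′ end, and miRNAs with one seed share many predicted targets. The miR-15 family is known to repress cell cycle and survival genes, among them cyclins and Bcl2. In mouse heart, miR-195 is known for its part in the withdrawal of cardiomyocytes from the cell cycle after birth and for its rise in hypertrophy, and miR-15a and miR-16 are the pair first described as lost in human chronic lymphocytic leukaemia.

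The mature sequences show what holds the family together and where its members part. They are given 5′ to 3′ from RefSeq (GRCm38.p6), with the seed, bases 2 to 8, in capitals.
miR-16-5p: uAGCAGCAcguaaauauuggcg
miR-195a-5p: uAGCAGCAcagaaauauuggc
miR-15a-5p: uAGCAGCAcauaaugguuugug
miR-15b-5p: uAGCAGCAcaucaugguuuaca
miR-497a-5p: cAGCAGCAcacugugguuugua
miR-322-5p: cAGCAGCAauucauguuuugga
Set against them are 2 relatives, miR-503-5p, whose seed differs at its last base, and miR-103-3p, in which the same letters begin at base 1.
miR-503-5p: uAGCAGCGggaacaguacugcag
miR-103-3p: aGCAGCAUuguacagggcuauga
All 6 members carry the identical seed. Outside it the members fall into closer and more distant pairs. Counted from base 1 at the 5′ end, miR-16-5p and miR-195a-5p were equal at 19 of 21 positions and differed by G10A and U11G. Equality was 18 of 22 positions for miR-15a-5p and miR-15b-5p, 12 of 21 for miR-195a-5p and miR-497a-5p, and 11 of 22 for miR-16-5p and miR-497a-5p. Thus the precursor neighbours miR-195a-5p and miR-497a-5p are less alike than miR-195a-5p and miR-16-5p, which come from different loci. Of 10 mature mouse miRNAs with this seed in the RefSeq table, the other 4 (miR-195b, miR-6342, miR-6353 and miR-6419) had no row in the table analysed here.

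The members come from 4 loci (GENCODE M21, GRCm38). Mir15a (chromosome 14, 61632027 to 61632110, minus strand) lies 54 bases from Mir16-1 (61631880 to 61631972). The first is in an intron of the noncoding RNA gene Dleu2, and the second overlaps an exon of one of its transcripts. Mir15b (chromosome 3, 69009772 to 69009835, plus strand) lies 66 bases from Mir16-2 (69009902 to 69009996), both in an intron of Smc4, a condensin gene. Mature miR-16-5p is identical from both precursors, so its counts cannot be divided between the loci. Mir497 (chromosome 11, 70234717 to 70234800, plus strand), the precursor of miR-497a, lies 241 bases from Mir195a (70235042 to 70235135), outside any annotated host gene. Mir497b lies antisense to Mir497 and had 2 counts in 1 control library. Mir322 (X chromosome, 53054255 to 53054349, minus strand) lies 200 bases from Mir503, in a group that also holds Mir351, Mir542 and the Mir450 precursors.

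The libraries held 238434 to 420828 miRNA counts each, and a count of 0 allows up to 7.13 to 12.6 CPM (counts scaled to a common library total, here before TMM scaling), for counting error only. The heart muscle miRNAs checked against the label were present in every library, except that miR-208b-3p, of the fetal myosin gene Myh7, had 21 counts in all and was at 0 in 1 library. Their summed level, carried mainly by miR-1a-3p, was 292889 to 474080 CPM in HFD plus L-NAME and 246832 to 359449 CPM in control. The markers did not go one way: the log2 difference was above 0 for miR-1a-3p (0.48) and miR-208a-3p (0.63) and below 0 for miR-133a-3p (-0.19) and miR-499-5p (-0.60), and 0 of these 4 passed the adjusted threshold by edgeR. The groups did not overlap for miR-499-5p, whose host gene is the myosin gene Myh7b, at 22924 ± 2527 CPM in HFD plus L-NAME and 34744 ± 3709 CPM in control (SD, n = 5 each). Control 4 was the only library with more than a trace of the liver miRNA miR-122-5p, at 335 CPM.

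Within the family the level was set by miR-16-5p. Averaged over the 10 libraries it stood at 4867 ± 1163 CPM (SD, TMM-normalized) and ranked 27 of 733, while miR-195a-5p followed at 464 ± 254 CPM. The next were miR-322-5p (417 ± 153), miR-497a-5p (382 ± 92.5), miR-15a-5p (379 ± 54.6) and miR-15b-5p (194.6 ± 68.4). CPM counts reads and is not divided by length, which differs by 1 base among the members, and ligation-based libraries do not capture all miRNAs equally. The lowest library of miR-16-5p lay above the highest of miR-195a-5p, and miR-15a-5p lay above miR-15b-5p in all 10 libraries. The middle of the order was not fixed. In HFD plus L-NAME miR-195a-5p exceeded miR-322-5p in 5 of 5 libraries and in control in 2 of 5, while miR-322-5p exceeded miR-497a-5p in 6 of all 10 and miR-497a-5p exceeded miR-15a-5p in 5 of 10, with overlapping ranges.

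**Figure D1:**
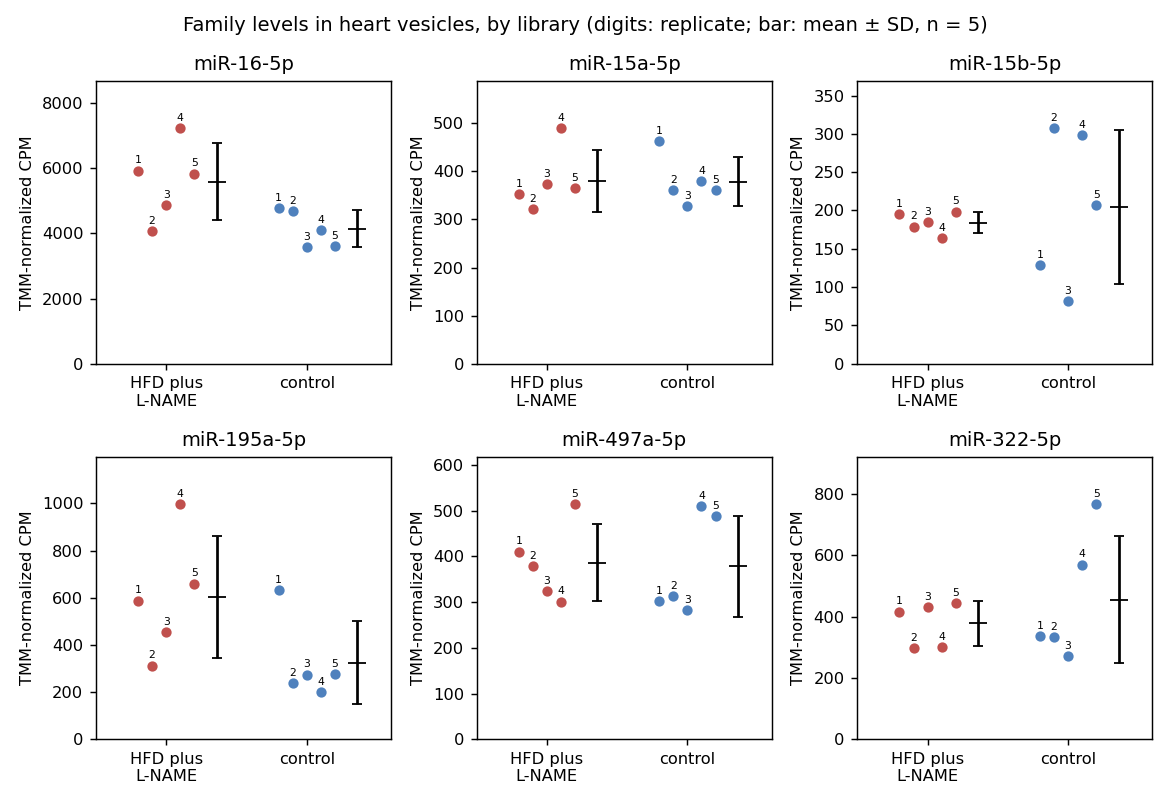
TMM-normalized CPM (linear axis from 0) of the 6 members in each library, HFD plus L-NAME on the left and control on the right of each panel, with the mean and SD of 5 libraries beside the points and replicate numbers above them. HFD plus L-NAME 4 is the highest library for miR-16-5p (7228 CPM) and miR-195a-5p (998 CPM), and control 1 is the highest control library for both.

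The title places these vesicles in the study of HFpEF, and each member was compared between HFD plus L-NAME and control. The largest values of difference were those of miR-195a-5p and miR-16-5p, both higher in HFD plus L-NAME. In the genome miR-497a-5p lies beside miR-195a-5p, and miR-15a-5p beside miR-16-5p, and both of these neighbours had values near 0. The other neighbour of miR-16-5p, miR-15b-5p, was at -0.16. None of the 6 passed the adjusted threshold of 0.05 by edgeR's quasi-likelihood test, in which 0% of the 177 miRNAs tested passed. At an unadjusted p under 0.05, 2 of 6 members stood out, against 15.8% of all miRNAs tested (28 of 177), and both were higher, against 7.34% of all. By DESeq2's Wald test on all rows 0% passed as well, with 39 of 732 at an unadjusted p under 0.05. On the 177 filtered miRNAs, an alternative chosen after seeing the data, DESeq2 called 11 (6.21%), of which 0 were members. It gave no adjusted p there for miR-15a-5p, miR-15b-5p and miR-497a-5p, so these could not be called.

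In the miR-15/miR-16 clusters, miR-16-5p held 5922, 4073, 4870.0, 7228 and 5835 CPM in HFD plus L-NAME 1 to 5, against 4780, 4690, 3570 and 4096 CPM in control 1 to 4 and 3602 CPM in control 5. Of the treated libraries 4 lay above the highest control library, and HFD plus L-NAME 2 lay among the controls. The means were 5586 ± 1191 CPM in HFD plus L-NAME and 4148 ± 576 CPM in control, a log2 difference of 0.43 ± 0.18 (SE, edgeR adjusted p = 0.232). With 886 to 2375 counts per library it was the best measured member.

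Its partner on chromosome 14, miR-15a-5p, had the narrowest range of the 6 over all 10 libraries, 1.53-fold from the lowest to the highest, although within HFD plus L-NAME alone miR-15b-5p varied less. It held 352, 321, 373, 490.0 and 365 CPM in HFD plus L-NAME, against 463, 361, 328, 379 and 362 CPM in control. The groups covered nearly the same range, and in each the highest library was the one that also led for miR-16-5p. The log2 difference was 0.01 ± 0.19 (SE, edgeR adjusted p = 0.985), and the sign of so small a value changed with the scaling.

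Its partner on chromosome 3, miR-15b-5p, was the least abundant member, with 23 to 127 counts per library. It held 194.9, 179, 185, 164 and 199 CPM in HFD plus L-NAME, against 129, 307, 82.1, 299 and 207 CPM in control. The treated libraries lay close together, with a coefficient of variation of 7.40%, while it was 49.0% in control, where control 2 and control 4 were high and control 1 and control 3 low. The log2 difference was -0.16 ± 0.33 (SE, edgeR adjusted p = 0.878). It turned positive without control 2 (0.06), without control 4 (0.14) and by limma (0.0055).

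In the miR-195/miR-497 cluster, miR-195a-5p held 588, 313, 455, 998 and 660.5 CPM in HFD plus L-NAME, against 634, 237, 275, 202 and 276 CPM in control. Control 1 stood apart from the other control libraries, all 4 of which lay below every treated library. The means were 603 ± 258 CPM in HFD plus L-NAME and 325 ± 175 CPM in control, a log2 difference of 0.89 ± 0.35 (SE, edgeR adjusted p = 0.214). Without control 1 the log2 difference was 1.29 (adjusted p = 0.0520), and without HFD plus L-NAME 4, the highest library, it was 0.65 (adjusted p = 0.451). Over all alternatives for this miRNA the adjusted p lay between 0.0520 and 0.558.

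The neighbouring miR-497a-5p did not follow it. It held 410.3, 378, 323, 301 and 515 CPM in HFD plus L-NAME, against 302, 312, 282, 509 and 488 CPM in control. Control 4 and control 5 were its highest control libraries, whereas control 4 was the lowest library for miR-195a-5p, and HFD plus L-NAME 4, the highest library for miR-195a-5p, was the lowest treated library here. The log2 difference was 0.03 ± 0.24 (SE, edgeR adjusted p = 0.967), with a sign that changed with the scaling.

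On the X chromosome, miR-322-5p, the mouse counterpart of human miR-424 and known from muscle differentiation, held 417, 297, 432, 301 and 446 CPM in HFD plus L-NAME, against 337, 334, 271, 570.1 and 768 CPM in control. Control 4 and control 5 lay above every treated library and the other controls within or below the treated range. The log2 difference was -0.27 ± 0.29 (SE, edgeR adjusted p = 0.760), and it was 0.0048 without control 5, or -0.13 leaving out HFD plus L-NAME 4. Of 9 listed companion arms from the same group of precursors 8 had a row, and 1, miR-542-5p, had enough counts to be tested. It differed by -0.39 ± 0.39 on the log2 scale (SE, edgeR adjusted p = 0.757), with 42.6 ± 8.83 CPM in HFD plus L-NAME and 56.7 ± 23.1 CPM in control (n = 5 each). Summed, the 8 companions stood at 52.7 to 82.5 CPM in HFD plus L-NAME and 72.5 to 146 CPM in control, so the groups overlapped.

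Over the 6 members, 4 log2 differences were above 0 and 2 below, where 48.6% of all miRNAs tested were above 0, and the median was 0.02 against -0.02 over all tested. In 0 of 6 members did the groups fail to overlap, while they did so for 3.95% of all miRNAs tested. These levels are relative to the miRNA counts of a library. With the read totals implied by the second deposited value as library size, the median of all tested miRNAs was -0.37 in log2, and on that scale miR-16-5p differed by 0.06 and miR-195a-5p by 0.51. Relative to the median of all miRNAs, miR-16-5p then stood at 0.43 and miR-195a-5p at 0.88, compared with 0.45 and 0.91 under TMM. In assumed RPM, miR-16-5p had 68.2 ± 26.1 in HFD plus L-NAME and 65.2 ± 24.3 in control, and miR-195a-5p 7.52 ± 4.52 in HFD plus L-NAME and 5.27 ± 4.11 in control (SD, n = 5 each). Fewer vesicles of one cell type and less of a miRNA per vesicle cannot be told apart in these bulk libraries.

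**Figure D2:**
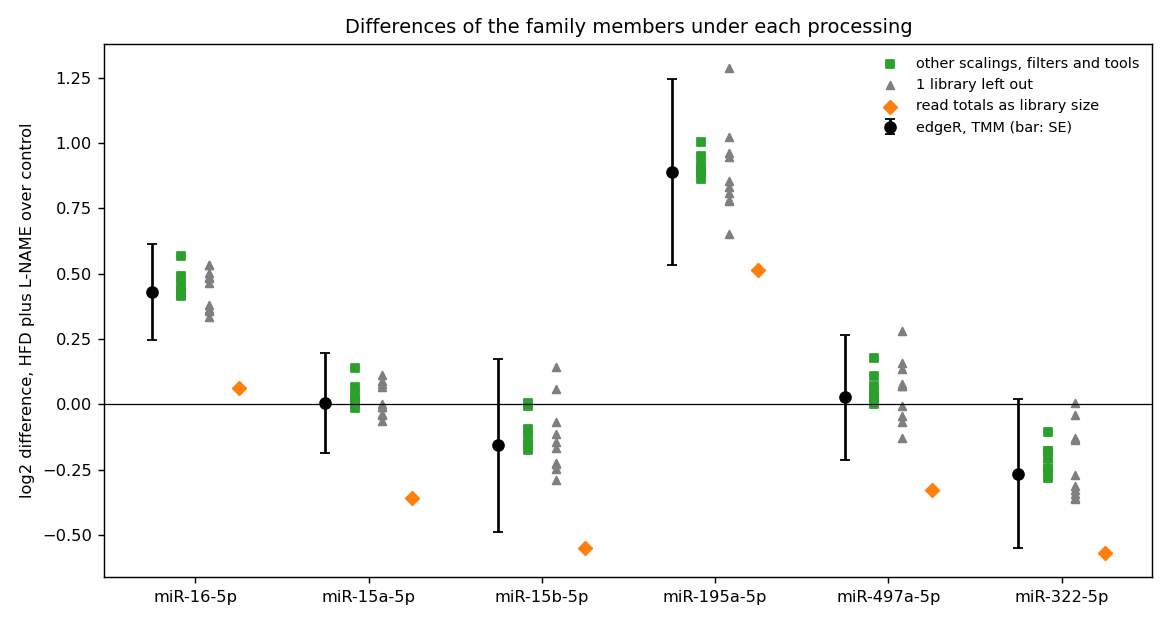
Log2 difference of HFD plus L-NAME over control for each member (linear axis, 0 marked), with the standard error for edgeR with TMM and without bars for the other settings. The values of miR-195a-5p lie between 0.51 and 1.29 and those of miR-16-5p between 0.06 and 0.57, whereas those of the other 4 members lie on both sides of 0.

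Ratios of members within a library do not depend on library size, and 6 ratios were tested with the exact two-sided permutation test on all arrangements of the group labels, with p-values adjusted over the 6. The smallest p was that of miR-15a-5p to miR-16-5p. The ratio was 0.0595, 0.0788, 0.0766, 0.0678 and 0.0625 in HFD plus L-NAME 1 to 5, against 0.0969, 0.0769, 0.0920, 0.0926 and 0.100 in control 1 to 5. Every treated library lay below the control median, and control 2 alone lay within the treated range. Lying on 1 side of the control median was not particular to this ratio. All 5 treated libraries also lay above it for miR-15a-5p to miR-15b-5p, where the log2 difference was only -0.01. The difference was -0.41 in log2 (95% interval from inverting the exact permutation test -0.65 to -0.18), and the exact permutation p was 0.0159, or 0.0952 adjusted. Leaving out control 2 separated the groups fully, so the exact permutation p then took its smallest possible value (adjusted 0.0476). Over the other alternatives tried the adjusted value lay between 0.0635 and 0.190.

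The ratio of the neighbours miR-195a-5p to miR-497a-5p was 1.43, 0.828, 1.41, 3.31 and 1.28 in HFD plus L-NAME 1 to 5, against 2.10, 0.760, 0.975, 0.397 and 0.567 in control 1 to 5. All 5 treated libraries lay above the control median, 1 of them above control 1, the highest control. The log2 difference was 0.87 (interval -0.40 to 2.11, exact permutation p = 0.159, adjusted 0.317), and it was 1.21 without control 1 (adjusted 0.0635) and 0.58 without HFD plus L-NAME 4 (adjusted 0.595). Across single libraries the ratio of these 2 miRNAs, whose precursors are neighbours, ranged from 0.397 in control 4 to 3.31 in HFD plus L-NAME 4.

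The ratio of miR-195a-5p to miR-16-5p, the most similar sequences of the family, differed by 0.50 in log2 (interval -0.22 to 1.18, exact permutation p = 0.119, adjusted 0.317), and by 0.72 without control 1 (adjusted 0.0635). That of miR-322-5p to miR-16-5p differed by -0.59 (interval -1.59 to 0.16, adjusted 0.343) and that of miR-15b-5p to miR-16-5p by -0.40 (interval -1.24 to 0.60, adjusted 0.343). Single libraries moved both values. The difference for miR-322-5p was -0.33 without control 5, or -0.42 leaving out HFD plus L-NAME 4. For miR-15b-5p it was -0.22 without control 4, -0.26 without control 2 or without HFD plus L-NAME 4, and -0.63 without control 3. The ratio of miR-15a-5p to miR-15b-5p differed by -0.01 (interval -1.04 to 0.91, adjusted 1.0), all by the same exact permutation test, and by -0.15 without HFD plus L-NAME 4. The ratio was 1.80 to 2.98 in HFD plus L-NAME and 1.17 to 4.0 in control, where control 1 and control 3 held 3.60 and 4.0 and control 2 and control 4 held 1.17 and 1.27.

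**Figure D3:**
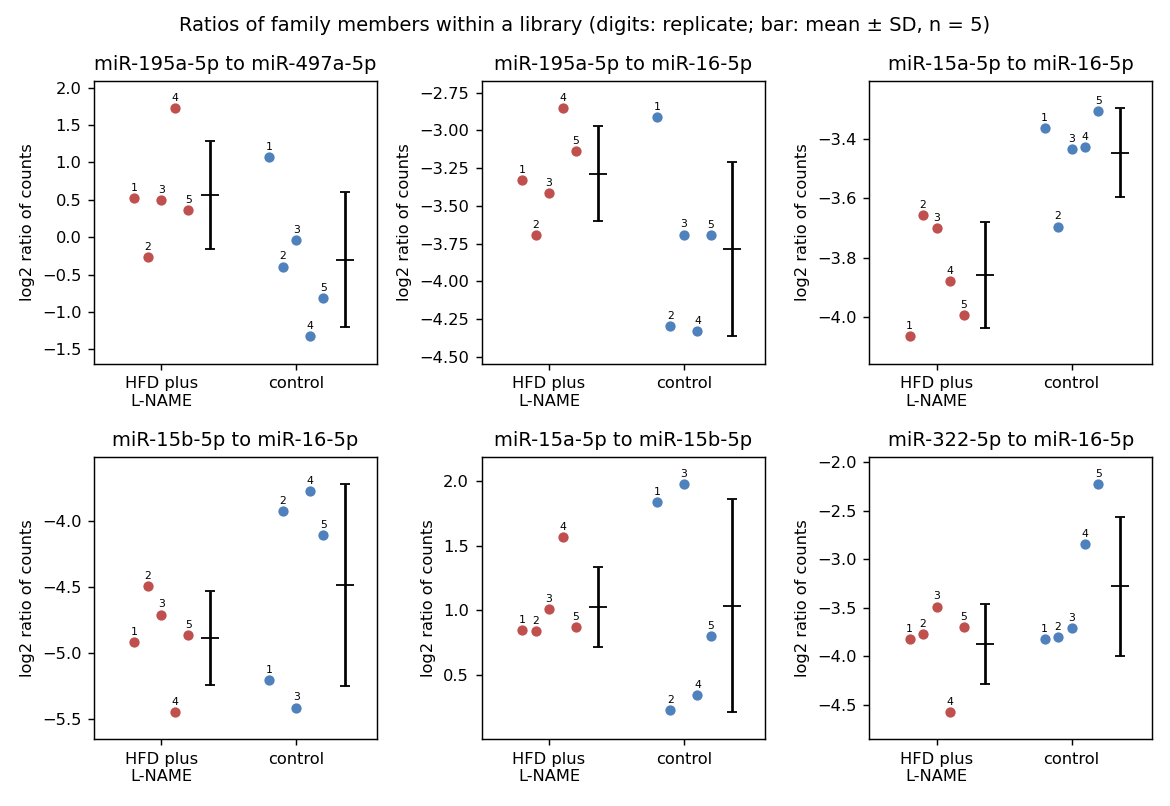
Log2 ratio of the counts of 2 members within each library, HFD plus L-NAME on the left of each panel, with mean and SD of 5 libraries and replicate numbers above the points. For miR-15a-5p to miR-16-5p the treated libraries lie below all controls except control 2, while in the other panels the groups overlap more widely.

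Compared by locus, the proportion of the miR-195/miR-497 cluster to the miR-15/miR-16 clusters differed by less than the spread within either group. The first (miR-195a-5p plus miR-497a-5p) gave 13.0% ± 1.15 of family counts in HFD plus L-NAME and 11.9% ± 2.04 in control, and the second (miR-15a-5p, miR-15b-5p and miR-16-5p) gave 81.8% ± 1.23 in HFD plus L-NAME and 80.3% ± 4.76 in control (SD, n = 5 each). The log2 ratio of the first to the second was -2.65 ± 0.14 in HFD plus L-NAME and -2.77 ± 0.33 in control, a difference of 0.11, or -0.02 without control 2. No test was made of these sums over members. Inside the miR-195/miR-497 cluster, miR-195a-5p was at 7.74% ± 1.83 of family counts in HFD plus L-NAME and 5.45% ± 2.47 in control. For miR-497a-5p the shares were 5.29% ± 1.43 in HFD plus L-NAME and 6.47% ± 1.89 in control. The differences were 2.29 and -1.18 percentage points, against 1.11 for the cluster, and neither exceeded the SD of its control group. The ratio of these 2 members, tested above, had an adjusted p of 0.317 by the exact permutation test.

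The share of miR-322-5p was 5.17% ± 1.22 of family counts in HFD plus L-NAME and 7.79% ± 3.64 in control. Control 5 alone held 13.5% (exact 95% binomial interval 11.7% to 15.4%) and control 4 held 9.41% (8.22% to 10.7%), while the other 3 controls held 5.07% to 5.64%. Without control 5 the difference of -2.62 percentage points was -1.20, and without HFD plus L-NAME 4 it was -2.12. On the log2 scale the ratio of miR-322-5p to the miR-15/miR-16 clusters was -4.02 ± 0.40 in HFD plus L-NAME and -3.48 ± 0.70 in control, a difference of -0.54, which was -0.37 without HFD plus L-NAME 4 and -0.29 without control 5. The whole family took 0.751% ± 0.171 of miRNA counts in HFD plus L-NAME and 0.595% ± 0.0987 in control, with 3 of 5 treated libraries above the highest control. The abundant miR-1a-3p, itself at 344900.0 ± 79830 CPM in HFD plus L-NAME and 246670.0 ± 54305 CPM in control, is part of that total. Among the counts of all other miRNAs the family took 0.742% to 1.40% in HFD plus L-NAME and 0.611% to 0.906% in control. The difference in means was then 0.356 percentage points, against 0.156 with miR-1a-3p in the total. Every share is larger on the smaller total, so these point differences are not on the same scale.

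**Figure D4:**
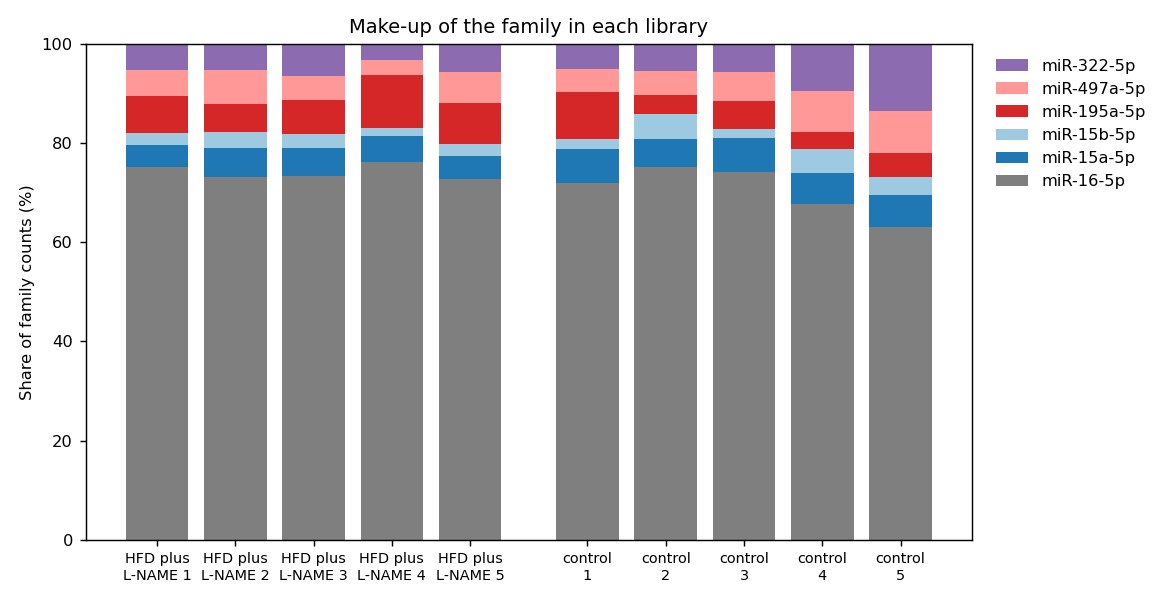
Share of each member in the summed counts of the family (stacked bars, 0 to 100%), with the 5 libraries of HFD plus L-NAME on the left and the 5 control libraries on the right. Most of each bar is miR-16-5p, and the tallest bands of miR-322-5p are those of control 4 (9.41%) and control 5 (13.5%).

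Library by library, 1 of the 3 pairs of precursor neighbours had the most parallel profiles of all pairs of members and the other 2 did not. The likeness of 2 profiles was measured as the root mean square distance of their log2 CPM, each centred on its mean over the 10 libraries, so that a small value means parallel profiles. The closest pair was miR-15a-5p and miR-16-5p at 0.25, which share the locus on chromosome 14, followed by miR-322-5p and miR-497a-5p at 0.27, which lie on different chromosomes. By contrast miR-195a-5p and miR-497a-5p stood at 0.84 and miR-15b-5p and miR-16-5p at 0.56. The member closest in profile to miR-195a-5p was miR-16-5p at 0.48, which is also the most similar to it in sequence. The most distant pair was miR-15b-5p and miR-195a-5p at 0.99. These distances describe 10 libraries and are larger for miRNAs that vary more, and miR-195a-5p varied most of the 6, by 4.94-fold between its lowest and highest library.

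Among the other 171 miRNAs tested, those with the most similar profile to miR-15a-5p were miR-30c-5p (0.18) and miR-411-5p (0.20), and those most similar to miR-16-5p were miR-490-5p (0.25) and miR-24-3p (0.26), the distances again in log2 over 10 libraries. Both miR-30c-5p and miR-411-5p were thus closer to miR-15a-5p than its neighbour miR-16-5p was (0.25). For miR-16-5p, miR-490-5p was about as close as miR-15a-5p. For miR-15b-5p they were miR-25-3p (0.25) and miR-191-5p (0.41). For miR-195a-5p they were miR-126a-5p (0.40), the other arm of the endothelial miR-126a precursor, and miR-148a-3p (0.45), both farther away than the nearest of any other member. For miR-497a-5p they were miR-128-3p (0.25) and miR-378a-5p (0.26), and for miR-322-5p miR-872-3p (0.27) and miR-378a-5p (0.29).

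The other arms of the family's precursors were scarce. Of 7 listed, 5 had a row and 0 passed the filter. The most frequent was miR-322-3p, with 27 counts in HFD plus L-NAME and 16 in control libraries, whereas miR-322-5p from the same precursor had 1288 counts in all. There were 27 counts of miR-195a-3p against 1465 of miR-195a-5p, 17 of miR-15b-3p against 624 of miR-15b-5p, 2 of miR-15a-3p and 1 of miR-16-2-3p. Of the relatives, miR-503-5p had 7 counts in all and miR-107-3p 19. The other relative, miR-103-3p, differed by 0.81 ± 0.32 in log2 (SE, edgeR adjusted p = 0.209), with 96.7 ± 24.2 CPM in HFD plus L-NAME and 55.0 ± 17.9 CPM in control (n = 5 each), and reads may be shared with the closely similar miR-107-3p.

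Because miR-16 is abundant in red blood cells, the markers of that cell type are given beside it. All 5 listed markers were detected, 1 of them with a log2 difference above 0 and 4 below. Their summed level, carried mainly by miR-451a, was 9312 to 26170 CPM in HFD plus L-NAME and 17835 to 54126 CPM in control. The log2 differences were -0.97 ± 0.35 for miR-451a, -1.30 ± 0.49 for miR-486b-5p and 0.51 ± 0.94 for miR-486a-5p (SE, edgeR). For miR-144-3p and miR-144-5p they were -0.14 ± 0.39 and -0.02 ± 0.60. How reads were divided between miR-486a-5p and miR-486b-5p is not stated, so their opposite signs may not be separate results. Their counts were 3 and 63 in HFD plus L-NAME 2, but 112 and 39 in HFD plus L-NAME 1. Control 2 and control 4 held the highest levels of miR-451a, at 52138 and 53459 CPM, and were also the highest libraries of miR-15b-5p, and the 3 controls highest in miR-451a (4, 2 and 1) were also the 3 highest in miR-16-5p. The treated libraries did not repeat this order. HFD plus L-NAME 5 held the least miR-451a (8886 CPM) but the most miR-15b-5p of them (199 CPM). Its miR-16-5p (5835 CPM) exceeded that of HFD plus L-NAME 2 and 3, which held 16809 and 17233 CPM of miR-451a. HFD plus L-NAME 1, with the most miR-451a of them (25469 CPM), exceeded all but HFD plus L-NAME 4 in miR-16-5p. Between the groups the levels went apart, with miR-451a at 17142 ± 5866 CPM in HFD plus L-NAME and 33478 ± 17936 CPM in control (SD, n = 5 each), whereas the mean of miR-16-5p was the higher one in HFD plus L-NAME. The endothelial markers summed to 40453 to 73476 CPM in HFD plus L-NAME and 61554 to 84628 CPM in control, and the smooth muscle markers to 29556 to 40854 CPM in HFD plus L-NAME and 42539 to 65483 CPM in control. The groups of the smooth muscle sum did not overlap. Each of these sums is carried by 1 of its 2 markers. The log2 difference of the endothelial marker miR-126a-3p was -0.32 whereas that of miR-126a-5p was 0.40, and among the smooth muscle markers miR-143-3p had -0.54 and miR-145a-5p 0.18. The leukocyte markers summed to 671 to 1029 CPM in HFD plus L-NAME and 802 to 1503 CPM in control, with 1 of the 3 tested above 0 in log2 difference and 2 below. By edgeR 0 markers of any of these cell types passed the adjusted threshold. The part of these cell types in the levels of the family was not tested.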

How the data were processed

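Small RNA of heart sEVs was sequenced in 10 libraries made with an adaptor-ligation kit, per the labels' protocols. The authors deposited raw read counts per mature miRNA, and a second value without a stated unit. The values that the authors deposited beside the counts were read as RPM, since count over value was 1 constant per library, from which read totals of 21563706 to 27493797 were recovered. Per the submitters' processing notes, the genome was GRCm38.p6. The sources used here name no aligner or counting tool and do not say how reads matching several miRNAs were counted, so counts of near-identical members rest on that step. Replicate numbers follow accession order and pair nothing, and the labels name no batch. No library was a copy of another (chi-square per degree of freedom at least 20.2 between any 2).

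Counts were fitted over the whole table with edgeR 4.0.16 (TMM, default filter, robust quasi-likelihood F test, Benjamini-Hochberg over 177 miRNAs) in R 4.3.3, and the test was checked on simulated data. The SE is the log2 difference divided by the square root of F. Log2 CPM used a prior count of 2. Ratios had 0.5 added to each count and were tested exactly, with a smallest possible p of 0.00794. DESeq2 1.42.0 and limma 3.58.1 were alternatives, with other scalings, filters and each library left out. Python 3.11.15, NumPy 2.4.6, pandas 2.3.3, SciPy 1.17.1 and matplotlib 3.10.9 did the rest. The members, lists and ratios were chosen with earlier results of these data known. The miRNAs named were the members, fixed lists of related miRNAs and markers, and the 2 nearest profiles per member; miR-122-5p is on the marker list. Binomial intervals and the limits for a count of 0 cover counting error only, whereas intervals of ratio differences reflect the spread between libraries.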

Additional observations from a re-analysis of the deposited data

Results flagged for a closer look

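In control, the level of miR-195a-5p in control 1 (634 CPM) lay far from the other 4 libraries, the next of which held 276 CPM, and the gap took 0.828 of the group's range. HFD plus L-NAME 4 lay apart from the other 4 libraries of its group in the log2 ratio of miR-15a-5p to miR-15b-5p (1.57) and in the log2 ratio of miR-322-5p to the miR-15/miR-16 clusters (-4.71). Such a gap was looked for in 42 groups of 5 values, which share libraries and members, and chance gives one in about 1 in 20 groups. Without control 1 the log2 difference of miR-195a-5p was 1.29, against 0.89 with it. Without HFD plus L-NAME 4 the difference in the log2 ratio of miR-15a-5p to miR-15b-5p was -0.15, against -0.01 with it, and that of miR-322-5p to the miR-15/miR-16 clusters was -0.37, against -0.54.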

How the results depend on the processing

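Of 18 alternatives for each member, 0 gave an adjusted p under 0.05 for any member. DESeq2 on the filtered miRNAs gave no adjusted p for miR-15a-5p, miR-15b-5p and miR-497a-5p. All 18 kept miR-195a-5p and miR-16-5p at positive values, at an unadjusted p under 0.05 in 12 and 11 of them. The sign of miR-15a-5p turned negative without TMM (-0.016), with read totals as library size (-0.36) and in 5 settings with a library left out, within a range of -0.064 to 0.11. That of miR-497a-5p did so with read totals (-0.33) and in 4 settings with a library left out (-0.13 to 0.28). The value of miR-15b-5p turned to 0.0055 by limma and ranged from -0.29 to 0.14 with a library left out, and that of miR-322-5p ranged from -0.36 to 0.0048. The number of miRNAs called was 0 with edgeR, 1 without a filter, 11 by DESeq2 on the filtered miRNAs (chosen after seeing the data), and 0 to 1 with a library left out. The ratio of miR-15a-5p to miR-16-5p kept its sign in 11 of 11 alternatives (-0.47 to -0.36 with a library left out), whereas that of miR-15a-5p to miR-15b-5p changed it (-0.21 to 0.22). With a library left out, the difference in the share of family counts was -0.29 to 2.89 percentage points for the miR-15/miR-16 clusters and -3.30 to -1.20 for miR-322-5p. Without miR-1a-3p in the total, the difference in the share of miRNA counts was 0.0573 percentage points for the miR-195/miR-497 cluster (0.0272 with it), 0.302 for the miR-15/miR-16 clusters (0.137) and 0.356 for the family (0.156). Leaving miR-1a-3p out makes every share larger, so the point differences with and without it are not on the same scale. The causes of these changes were not tested. No paired analysis was possible because the labels give the groups no shared replicate numbers.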
